A study of Mus musculus with 10 samples.

Results

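Cytochrome P450 genes, 97 in all, were followed here through a map of p63 binding sites in mouse keratinocytes. The members are the autosomal protein-coding genes of the RefSeq annotation of GRCm38 whose symbol starts with Cyp, 1 or 2 digits, a letter and digits. They are 97 of 20556 autosomal protein-coding genes, and the rule reads symbols, not peaks. p63, a transcription factor of the p53 family, directs the growth and layering of the epidermis. It was mapped by chromatin immunoprecipitation and sequencing (ChIP-seq) with the antibody 4A4 in the keratinocyte lines MK1 and MK2, 1 p63 library per line. The labels give no treatment, genotype, strain or age for either line. The authors' deposited list holds 8451 peaks made from both p63 libraries together, with positions only and no height. It therefore gives no value per line and no spread between the lines, its read depth is unknown, and the keratinocyte label could not be checked against RNA. A gene is said here to have a peak when a peak midpoint lies inside it or within 25 kb of either end. Intervals of percentages are 95% Wilson intervals, and those of peaks per Mb are 95% exact Poisson intervals. They cover counting error only and treat genes as independent, although neighbouring genes can share a peak. Beside a count of 0, the limit given first is that of 3 counts, and the upper bound of the interval follows.

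P450 enzymes are heme proteins that insert oxygen into small molecules, mostly in the endoplasmic reticulum and, for some steroid, sterol and vitamin D enzymes, in mitochondria. Families 1, 2 and 3 are best known for drugs, pollutants and other foreign compounds (xenobiotics), and many of their mouse genes stand in tandem arrays of close copies. Other P450 enzymes make or break down single classes of signal: Cyp26 enzymes degrade retinoic acid, which controls keratinocyte differentiation, and others act on vitamin D, steroid hormones, cholesterol, bile acids and fatty acids. In skin, P450 enzymes limit retinoic acid and help to make the lipids of the water barrier. The members were sorted into 50 genes of clustered xenobiotic subfamilies (Cyp1a, Cyp2a, Cyp2b, Cyp2c, Cyp2d, Cyp2j and Cyp3a) and 22 single genes for retinoids, vitamin D, steroids, sterols and fatty acids. The other 25 are the clustered fatty acid genes Cyp4a and Cyp4f, single xenobiotic genes and Cyp20a1, whose substrate is not known. The sets follow subfamily and substrate, not the position of each gene. Cyp2c23 and Cyp3a13 of the clustered set stand apart from other P450 genes. Of the single set, Cyp4x1 and Cyp4b1 lie in a cluster with Cyp4a, and Cyp26a1 and Cyp26c1, like Cyp11b1 and Cyp11b2, are neighbours.

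Among RefSeq promoter windows, the only P450 window overlapped by a p63 peak was that of Cyp2j9, a family 2 gene whose relatives convert arachidonic acid. The windows run from 250 bases before a gene's start to 50 after it, and 75 of the 97 genes had 1 or more, 85 windows in all. A peak overlapped 1 of the 85, and 1.17% of the 20084 windows of all autosomal protein-coding genes. Cyp4f17, with a peak midpoint 0.157 kb inside its lower end, was among the genes without a window. Its strand was not given, so whether that peak lies at its promoter could not be checked. Below are the 250 bases before the start for 3 genes, 5′ to 3′ on the gene's strand (RefSeq, GRCm38.p6). Cyp2j9 (chr4:96591486-96591735, minus strand) is shown because a peak covers part of it, and the 115 bases under the peak are in capitals. Cyp26b1 (chr6:84593811-84594060, minus strand) and Cyp26a1 (chr19:37697558-37697807, plus strand) are shown because these retinoic acid hydroxylases differed in their peaks. In Cyp26a1 the capitals mark a direct repeat read by retinoic acid receptors.
Cyp2j9: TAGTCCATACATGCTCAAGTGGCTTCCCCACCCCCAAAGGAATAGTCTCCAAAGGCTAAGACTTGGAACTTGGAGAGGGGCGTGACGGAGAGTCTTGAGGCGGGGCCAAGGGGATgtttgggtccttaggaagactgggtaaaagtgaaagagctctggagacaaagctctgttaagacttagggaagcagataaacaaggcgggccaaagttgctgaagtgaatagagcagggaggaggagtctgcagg
Cyp26b1: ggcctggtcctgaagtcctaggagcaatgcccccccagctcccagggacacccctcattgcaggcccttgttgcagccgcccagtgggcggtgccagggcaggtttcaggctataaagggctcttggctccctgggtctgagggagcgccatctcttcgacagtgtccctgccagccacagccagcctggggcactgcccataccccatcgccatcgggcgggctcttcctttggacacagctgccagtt
Cyp26a1: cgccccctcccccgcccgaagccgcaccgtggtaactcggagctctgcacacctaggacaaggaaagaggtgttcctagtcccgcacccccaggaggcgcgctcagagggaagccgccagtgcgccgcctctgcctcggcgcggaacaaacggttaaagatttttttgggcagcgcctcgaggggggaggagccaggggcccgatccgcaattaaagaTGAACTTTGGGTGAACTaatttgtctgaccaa

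For motifs, the windows of all autosomal genes in the promoter table were searched on both strands, 31396 in all, a wider set than the 20084 of protein-coding genes. The repeat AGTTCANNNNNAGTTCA was found in 1 P450 window, that of Cyp26a1, where it lies on the reverse strand at -32 to -16 relative to the start, and in 8 of 31396 autosomal windows (0.0255%). Its variant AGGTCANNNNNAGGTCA was in 3 of 31396 windows (0.00956%) and in 0 P450 windows. The p53-family 10-base element, the unit that p53 and p63 read in pairs, was in 6 of 85 P450 windows and in 8.35% of all windows. The p53-family paired core, made of 2 CNNG groups 6 bases apart with A or T at each N, was in 8 of 85 P450 windows and in 7.13% of all windows. These patterns can overlap. Neither was in the 3 stretches printed above, so the part of the Cyp2j9 promoter under the peak held neither. Members with the paired core were Cyp2s1 and Cyp2j6, which have peaks, and Cyp1a1, Cyp2e1, Cyp11a1, Cyp2b23, Cyp2t4 and Cyp4f18, which do not. The nearest peak midpoints of Cyp2s1 and Cyp2j6 were 15.4 and 13.6 kb from their starts. None of the 6 members with the 10-base element had a peak: Cyp2c29, Cyp2c38, Cyp2c39, Cyp2c55, Cyp2f2 and Cyp4f15. The Cyp2c genes among them lie in the same array without a peak and are not independent. Of all P450 genes 14.4% had a peak, and of all autosomal protein-coding genes 30.8%, so counts this small say little. A match or its absence describes these letters only.

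p63 peaks were sparse at P450 genes. Of the 97, 14 had a peak (14.4%, interval 8.80 to 22.8), against 30.8% of all autosomal protein-coding genes. They were Cyp26b1, Cyp27a1, Cyp39a1, Cyp4x1, Cyp4f39, Cyp4f17, Cyp4f16, Cyp2s1, Cyp2b10, Cyp2j6, Cyp2j9, Cyp2j13, Cyp3a16 and Cyp2c23. Of these, 8 genes had 1 peak, 4 had 2 and 2 had 3. The median distance to the nearest peak was 156 kb for P450 genes and 73.1 kb for all genes, and 63 of 97 P450 genes (64.9%) were over 100 kb from any peak, against 42.9% of all genes. P450 genes were not shorter than others (median 22.5 kb against 17.6 kb). As gene windows differ in length and overlap, peaks were also counted per Mb of the joined windows. The P450 windows held 18 peaks in 6.36 Mb, or 2.83 per Mb (95% exact Poisson interval 1.68 to 4.47). All gene windows held 4.65 per Mb and the annotated autosomes 3.45 per Mb. The P450 interval includes the autosomal value but not that of all gene windows.

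**Figure D1:**
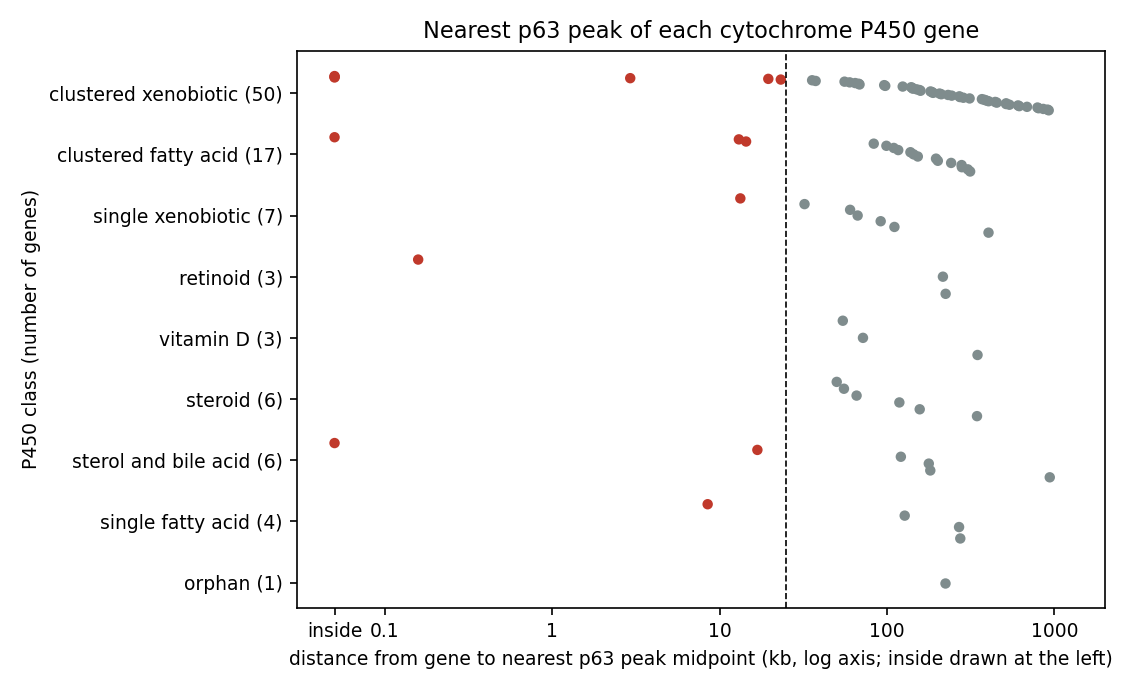
Distance from each of the 97 P450 genes to its nearest p63 peak midpoint, in kb on a log axis, with genes sorted by class. Red points are the 14 genes with a peak inside or within 25 kb (dashed line), points at the left edge have a peak inside, and grey points are the other genes.

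Clustered xenobiotic genes had a peak in 6 of 50 cases (12.0%, interval 5.62 to 23.8) and single retinoid, vitamin D, steroid and lipid genes in 4 of 22 (18.2%, interval 7.31 to 38.5). Both shares were under the 30.8% of all genes, and the interval of the single genes includes that value. The difference between the sets, single minus clustered, was 6.18 percentage points, with a 95% Newcombe interval of -9.87 to 27.5, so the 2 sets were not told apart. Per Mb of window, the clustered genes had 6 peaks in 3.48 Mb, or 1.72 per Mb (interval 0.632 to 3.75). The single genes had 7 peaks in 1.65 Mb, or 4.25 per Mb (interval 1.71 to 8.76), beside the 4.65 per Mb of all gene windows. Of these 7 peaks, 3 were at Cyp26b1 and 2 at Cyp27a1, and the interval takes peaks as independent. The order of the sets turned with the unit. With loci counted in place of genes (members joined over gaps of at most 200 kb), 4 of 9 clustered loci (44.4%) and 4 of 19 single loci (21.1%) had a peak. A locus counts by 1 peak near any member, and clustered loci hold more genes. No locus share was made for all genes, so these 2 shares have no background. With sets made by position alone, in a cluster of 3 or more P450 genes or not, the shares were 15.2% (10 of 66) and 12.9% (4 of 31).

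In the retinoid class, peaks lay at 1 of 3 genes. Cyp26b1, which encodes the hydroxylase that clears retinoic acid in developing skin and other tissues, had 3 peaks, and its nearest neighbour gene Exoc6b was at least 47.2 kb from each of them. All 3 lay beyond the gene's 3′ end: at chr6:84571063-84571450 (388 bp wide, midpoint 0.158 kb beyond the end and overlapping it), chr6:84565402-84565769 (368 bp, 5.83 kb beyond) and chr6:84559465-84559739 (275 bp, 11.8 kb beyond). The start of Cyp26b1 was 22.6 kb from the nearest of these midpoints, so the promoter printed above carried no peak. The peaks stood 5.67 and 5.98 kb apart. Cyp26a1 and Cyp26c1, neighbours on chromosome 19 that encode the other enzymes of the family, had 0 peaks within 25 kb, and their nearest peaks were 216 and 224 kb away.

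None of the 3 P450 genes for vitamin D and none of the 6 for steroid hormones had a peak. Cyp24a1, which degrades active vitamin D, was 54.4 kb from its nearest peak. Cyp27b1, which makes the active hormone in keratinocytes and kidney, was 71.8 kb away, and Cyp2r1, which acts before it, 347 kb. With 3 genes, 0 peaks set no useful limit on the share. Among the 6 steroid genes the nearest peak was 50.1 kb from Cyp11b1, an adrenal gene for the last step to corticosterone, 55.3 kb from Cyp17a1 and 65.8 kb from Cyp11b2, which makes aldosterone. It was 119 kb from Cyp11a1, which starts steroid synthesis from cholesterol, 157 kb from Cyp21a1 and 345 kb from Cyp19a1, the aromatase that makes oestrogens. A count of 0 of 6 allows a share of up to 50.0% by 3 counts and 39.0% by the Wilson interval.

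Of the sterol and bile acid genes, 2 of 6 had a peak. Cyp27a1, a mitochondrial sterol hydroxylase of bile acid and oxysterol synthesis, had 2 peaks inside the gene. They were at chr1:74716019-74716381 (363 bp), 2.67 kb downstream of the start, and at chr1:74726229-74726452 (224 bp), 12.8 kb downstream of it. Cyp39a1, an oxysterol hydroxylase, had 1 peak 16.8 kb below its lower end, at chr17:43650452-43650681 (230 bp). That peak lay inside Slc25a27, a mitochondrial carrier gene. The others were over 100 kb from any peak: Cyp46a1 of brain cholesterol turnover at 121 kb, Cyp7a1, the rate-limiting enzyme of bile acid synthesis, at 178 kb, Cyp8b1 at 181 kb and the oxysterol enzyme Cyp7b1 at 939 kb, the farthest of all 97 genes.

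Of the single fatty acid genes, 1 of 4 had a peak. Cyp4x1 had 1 at chr4:115097702-115097986 (285 bp), 8.48 kb below its lower end and closer to Pdzk1ip1 (3.95 kb), an epithelial membrane protein gene. Cyp4b1 was 128 kb, Cyp2u1 269 kb and Cyp4v3 274 kb from a peak.

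Cyp4f genes, which encode fatty acid omega-hydroxylases, had peaks at 3 of 9 members, all from 1 group of 3 peaks inside Cyp4f17 on chromosome 17. The peaks were at chr17:32506235-32506464 (230 bp), 0.157 kb from the lower end of Cyp4f17, and at chr17:32519971-32520179 (209 bp) and chr17:32522039-32522279 (241 bp), 2.08 kb apart. Cyp4f39, the mouse counterpart of the human ichthyosis gene CYP4F22, which makes an acylceramide precursor for the skin barrier, counted by the first of these, 13.0 kb downstream of its end. Cyp4f16 counted by the other 2, the closer of them 14.4 kb upstream. Neither gene was the nearest gene of any peak. None of the 8 Cyp4a genes, whose enzymes hydroxylate fatty acids in liver and kidney, had a peak. This leaves room for a share of up to 37.5% by 3 counts and 32.4% by the Wilson interval, and their nearest peaks were 144 to 314 kb away.

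**Figure D2:**
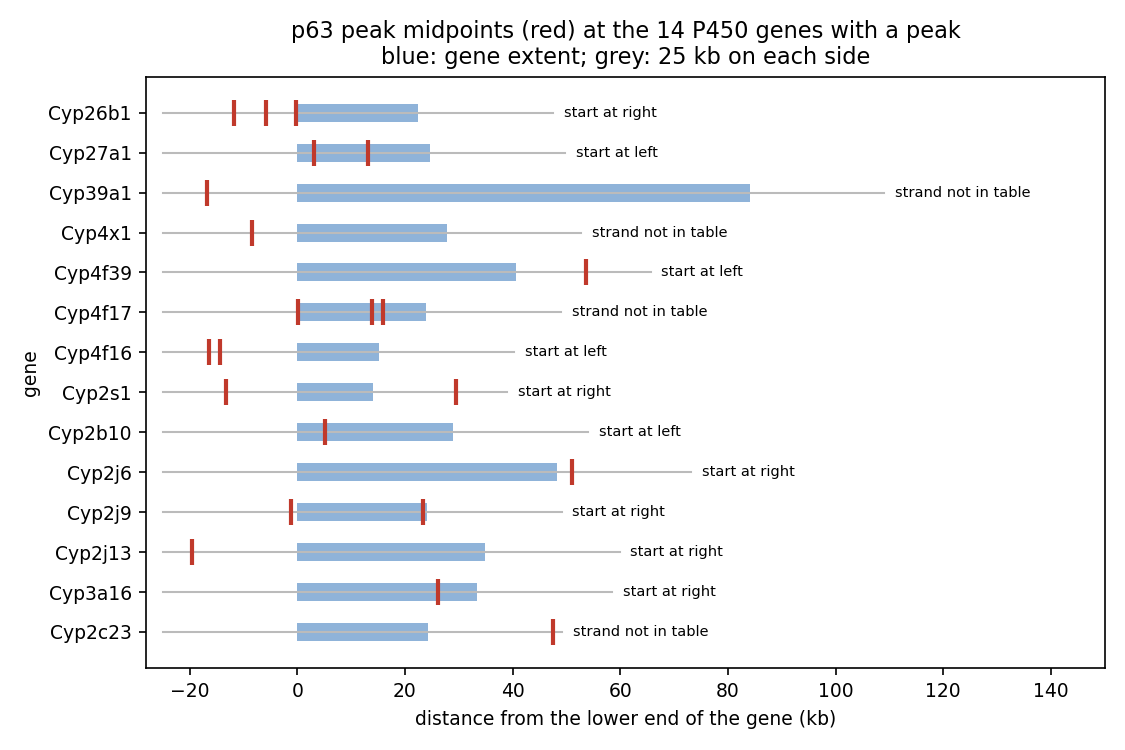
Positions of p63 peak midpoints (red) at the 14 P450 genes with a peak, in kb from the lower end of each gene; blue bars are gene extents and grey lines the 25 kb on each side. The 3 peaks of Cyp26b1 lie at and beyond its 3′ end, those of Cyp27a1 and Cyp4f17 lie inside, and Cyp4f39 and Cyp4f16 count only peaks that are inside Cyp4f17.

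Single xenobiotic genes had a peak in 1 of 7 cases. Cyp2s1, an epithelial P450 induced through the dioxin receptor, had 2. The one at chr7:25831573-25832337, 15.4 kb upstream of its start, was 765 bp wide, wider than 98.6% of autosomal peaks and the widest of the P450 peaks. The other, at chr7:25788955-25789397 (443 bp), was 13.3 kb downstream of Cyp2s1 but 0.252 kb from Axl, a receptor tyrosine kinase gene. A further peak at chr7:25844431-25844733 lay 28.1 kb upstream, outside the 25 kb limit. Cyp1b1, which activates polycyclic hydrocarbons, missed the limit, with its nearest peak at 32.1 kb. Cyp2e1, the ethanol-oxidising enzyme of liver, was 60.2 kb away.

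Among clustered xenobiotic genes, the Cyp2j array had most members with a peak, 3 of 7. Cyp2j9 had 2 peaks. The one at chr4:96591621-96591867 (247 bp), partly printed above, had its midpoint 0.259 kb upstream of the RefSeq start of the printed promoter and inside the gene's annotated extent. The other, at chr4:96567088-96567367 (280 bp), lay between Cyp2j9 (1.20 kb) and Cyp2j6 (2.92 kb) and gave Cyp2j6 its only peak. Cyp2j13 counted by a peak at chr4:96022970-96023288 (319 bp), 19.5 kb downstream of it and inside Hook1, which encodes a microtubule linker. Cyp2b10, a phenobarbital-induced gene of liver, had a 220 bp peak at chr7:25902675-25902894, 5.13 kb downstream of its start. Cyp3a16, of the family that oxidises many drugs, had a 308 bp peak at chr5:145462308-145462615, 7.26 kb downstream of its start. Cyp2c23 had a 362 bp peak at chr19:44052268-44052629, 23.2 kb beyond its upper end and inside Erlin1, which encodes an endoplasmic reticulum protein. Just outside the limit were Cyp2j5 at 35.7 kb and Cyp2d26 at 37.5 kb.

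No peak lay within 25 kb of any Cyp1a, Cyp2a or Cyp2d gene. Cyp1a1 and Cyp1a2, the classic targets of the dioxin receptor, were 150 and 139 kb from a peak. The 4 Cyp2a genes were 189 to 404 kb and the 8 Cyp2d genes 37.5 to 273 kb away. For Cyp2a, a count of 0 allows a share of up to 75% by 3 counts and 49.0% by the Wilson interval. For Cyp2d these limits are 37.5% and 32.4%. Cyp2b19, whose enzyme makes epoxides of arachidonic acid in keratinocytes, was 453 kb from the nearest peak.

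The P450 genes form 35 loci, and 8 of these are clusters of 3 or more members that hold 66 genes. The clusters, with 25 kb on each side, held 13 peaks in 5.19 Mb, or 2.50 per Mb (exact Poisson interval 1.33 to 4.28), where the autosomal density of 3.45 per Mb would give 17.9. That interval includes the autosomal density. Peaks were uneven among them. The 14 Cyp2c genes from Cyp2c55 to Cyp2c70 (chr19:39006940-40187286) had 0 peaks in 1.23 Mb, where the autosomal density would give 4.25. That count of 0 allows up to 2.44 per Mb by 3 counts and 2.998 per Mb by the Poisson interval. All 14 lay in a stretch of 2053 kb between successive peaks, longer than 97.4% of the 8275 autosomal stretches, whose median was 73.9 kb. Stretches at least as long made up 31.6% of the length between autosomal peaks. That share is for single positions, with or without genes, and does not say how often a block of 14 genes lies in such a stretch. The 8 genes from Cyp2b23 to Cyp2t4 (chr7:26665227-27158564) and the 8 Cyp2d genes (chr15:82370527-82794452) also had 0 peaks. On chromosome 7 a stretch of 1323 kb without a peak ran from inside Cyp2b10 past Cyp2t4. Clusters with peaks were Cyp4f with 3, Cyp2j with 4, the chromosome 7 group of Cyp2s1 and Cyp2b10 with 4, Cyp3a with 1 and the group of Cyp4x1, Cyp4a and Cyp4b1 with 1. In the last 3 of these, the peaks lay at the first or second gene and the rest of the array had none. The cluster counts include chr4:96196752-96197048 in the Cyp2j array and chr7:25844431-25844733, which were 55.7 and 28.1 kb from the nearest member. Being beyond 25 kb, these are not among the peaks near P450 genes described below. Each cluster's interval but that of Cyp2c includes the autosomal value. Close copies can share reads. How reads with several matches were treated is not given in the sources used here, and its part in the empty arrays was not tested.

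**Figure D3:**
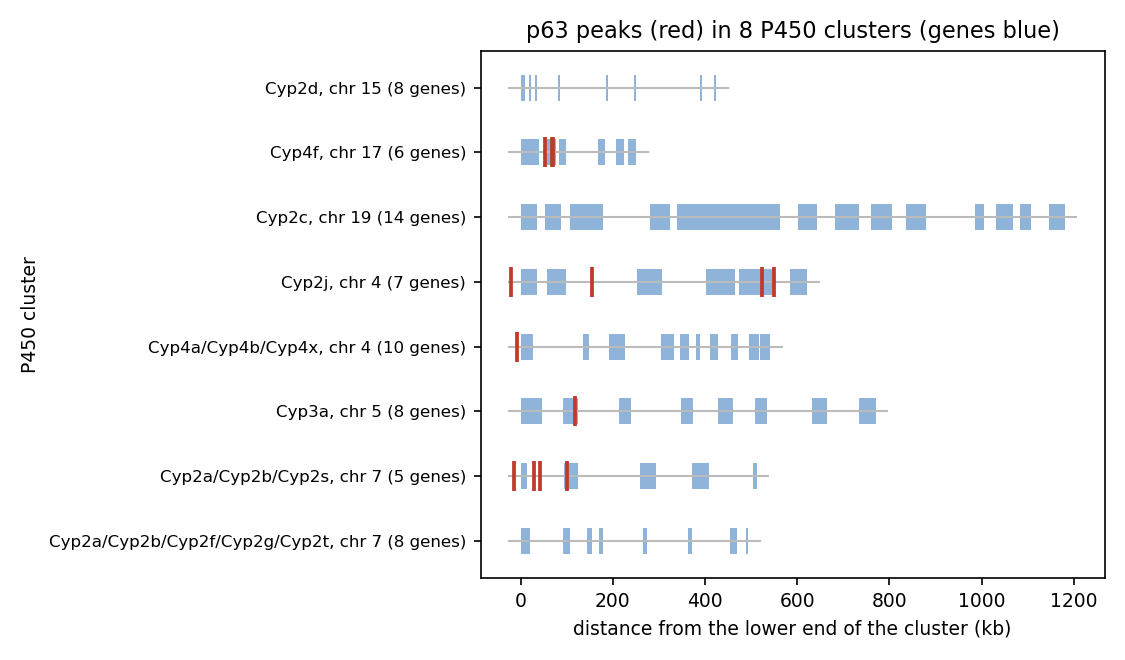
The 8 clusters of 3 or more P450 genes drawn to scale, in kb from the lower end of each; blue bars are genes, red marks p63 peak midpoints. The Cyp2c, Cyp2d and second chromosome 7 clusters hold no peak, while peaks of the Cyp3a cluster, the Cyp4a cluster and the first chromosome 7 cluster stand at the first or second gene.

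The 18 peaks near P450 genes lay on 7 chromosomes and had a median width of 282 bp (range 209 to 765), against 306 bp for the 8294 autosomal peaks. Of the 18, 5 (27.8%) had another peak within 10 kb, against 29.3% of autosomal peaks. For 13 of the 18 the nearest protein-coding gene was a P450 gene, and 8 lay inside one. The other 5 were closest to Axl, Slc25a27, Erlin1, Hook1 and Pdzk1ip1. When each peak counted only for its nearest gene, 7 of 97 P450 genes had one, against 19.8% of all genes. They were Cyp26b1, Cyp27a1, Cyp4f17, Cyp2s1, Cyp2b10, Cyp2j9 and Cyp3a16. Measured from RefSeq starts, 2 of 75 P450 genes (2.67%, interval 0.734 to 9.21) had a peak midpoint within 5 kb, Cyp27a1 and Cyp2j9, against 7.25% of all genes. Within 25 kb of a start there were 8 of 75 (10.7%), against 22.4%. Cyp4f17, for which no RefSeq start was at hand, is not among the 75.

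Genes that work with P450 enzymes had peaks more often than the P450 genes did. Of 82 partner genes in 7 lists, 45 (54.9%, interval 44.1 to 65.2) had a peak, where all genes had 30.8%. Their windows held 10.1 peaks per Mb (79 in 7.84 Mb). These lists were chosen with earlier results of these data known and include epidermal genes, so the counts are a description and not independent evidence. As with P450 genes, a counted peak can be closer to another gene. Of the genes named in this and the next paragraph, Cyb5r3, Ahrr, Rdh11 and Hsd17b1 were the nearest gene of no peak. Ppard was the nearest gene of 2 of its 5, Vdr of 2 of its 3, and Sqle and Alox5 of 1 of 3 each. Por, Rdh10, Srd5a1, Alox12 and Ephx1 were each the nearest gene of 1 of 2. The other named genes with a peak were the nearest gene of all of theirs. Of the redox partners, 5 of 7 had a peak. Por, the reductase that feeds electrons to most P450 enzymes of the endoplasmic reticulum, and Cyb5a, which encodes cytochrome b5, had 2 each. Cyb5b and Cyb5r3 had 1 each. Of the nuclear receptors and dioxin receptor genes, 6 of 16 had a peak: Rxra, the shared partner of retinoid, vitamin D and lipid receptors, and Ppard, a fatty acid receptor, had 5 each, and Ahrr and Hnf4a had 1 each. The dioxin receptor gene Ahr itself was 280 kb from a peak.

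Retinoid genes had a peak in 11 of 17 cases. Rarg, the main retinoic acid receptor of epidermis, Rdh10, which makes retinal for retinoic acid synthesis, Rdh11 and the fatty acid carrier Fabp5 had 2 each. Of 5 vitamin D genes, Vdr, the receptor, had 3 peaks and Lrp2, an uptake receptor, had 1. Steroid synthesis partners had a peak in 6 of 10 cases, with 2 each at Hsd17b1, Srd5a1 and Srd5a2 and 1 at Hsd11b1. Sterol and bile acid partners had one in 5 of 12, among them Sqle, an enzyme of cholesterol synthesis, with 3 and Ch25h, which makes an oxysterol, with 2. In the eicosanoid and epidermal fatty acid list 10 of 15 had a peak, with 3 at Alox5 and 2 each at Alox12, Cers3, a ceramide synthase of the skin barrier, and Ephx1, an epoxide hydrolase.

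Enzymes that conjugate the products of P450 enzymes were counted by the same rule, from symbol patterns. Glutathione transferases had a peak in 10 of 22 cases (45.5%, interval 26.9 to 65.3) and 13.2 peaks per Mb. Ugt genes had one in 7 of 21 (33.3%, interval 17.2 to 54.6) and 3.38 per Mb, and 6 of the 7 belong to Ugt1a, whose members share exons and peaks. Sulfotransferases had one in 2 of 21 (9.52%, interval 2.65 to 28.9) and 1.28 per Mb. The glutathione transferase interval does not overlap that of the clustered P450 genes, while those of the other families do. These intervals treat genes as independent, although the 22 glutathione transferases lie in 8 loci and neighbours can share a peak. By loci, 6 of 8 glutathione transferase loci and 4 of 9 clustered P450 loci had a peak. No test was made between the families.

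**Figure D4:**
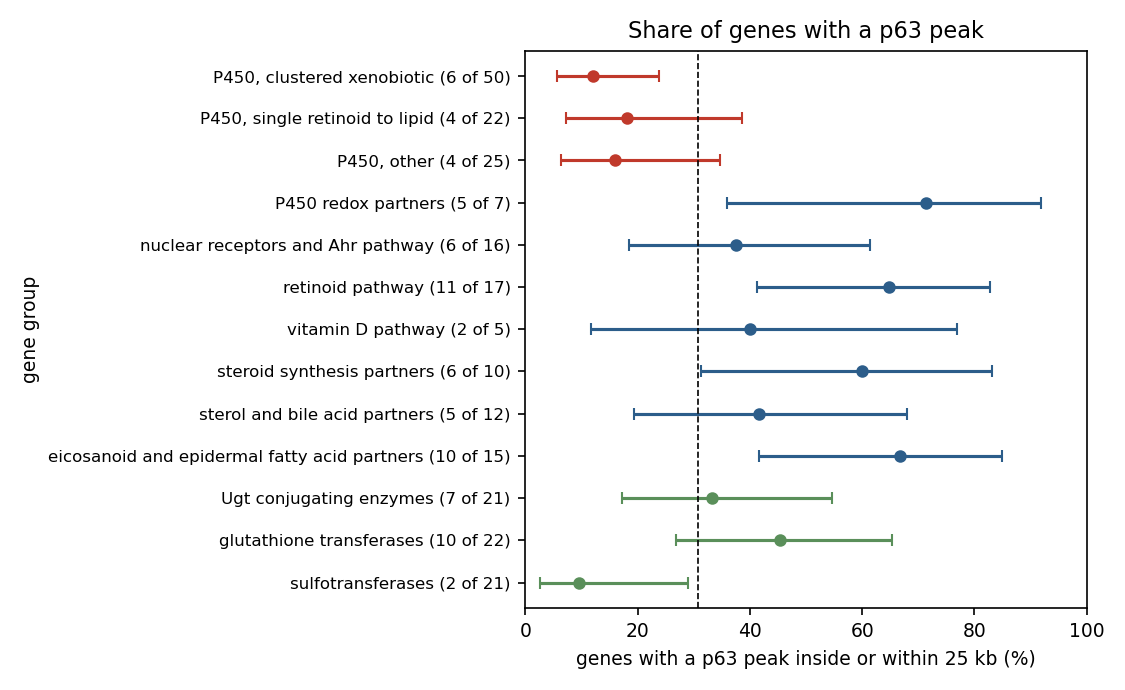
Percent of genes with a p63 peak inside or within 25 kb, with 95% Wilson intervals, for the 3 P450 sets (red), 7 lists of partner genes (blue) and 3 families of conjugating enzymes (green). The dashed line is the 30.8% of all autosomal protein-coding genes; each P450 set lies left of it, as do the sulfotransferases.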

How the data were processed

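p63 ChIP-seq was done in the mouse keratinocyte lines MK1 and MK2. The authors deposited 1 list of p63 peaks, made by running the irreproducible discovery rate (IDR) procedure on the 2 p63 libraries, per the labels. IDR retains peaks whose rank is similar in each replicate. The 3 columns give chromosome, start and end, with no score. Alignment tools and build, per the submitters' processing notes, were Bowtie 1.1.1, SAMtools 1.1 and mm10. For the peak caller and both thresholds the sources used here give nothing. Libraries of histone marks and input were not used here.

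Starts were made 1-based. Genes came from the RefSeq table of GRCm38.p6, the assembly of mm10, without rows that end below 3 Mb. The strand and promoter of 75 of 97 members came from the RefSeq promoter table. Counting was checked on simulated data. Intervals are Wilson (shares), Newcombe (differences) and exact Poisson (peaks per Mb). No test was run, because 1 pooled list has no replicates. Planned heme-signature protein stretches were not used here. Members with a peak, all members of the single set, those 25 to 50 kb from a peak and up to 4 genes per partner list were named by a rule, of which 2 are not reported here; other P450 genes, Axl and further neighbours were named after their values were seen. The members and lists were chosen with earlier results of these data known. Python 3.11.15, pandas 2.3.3, scipy 1.17.1 and statsmodels 0.14.6 were used.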

Additional observations from a re-analysis of the deposited data

How the results depend on the processing

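Of 34 alternative values, 23 stayed within the main interval and 11 moved. In each of the 31 with a background value, the P450 value was below that of all genes or of the autosomes. For all P450 genes the share was 8.25% within 10 kb (22.1% of all genes), 35.1% within 100 kb (57.1%), 5.15% inside genes alone (13.9%), 7.22% with nearest genes only (19.8%), 6.19% with peaks at least as wide as the median (18.9%) and 25.7% with loci as units. For clustered genes it was 30.0% within 100 kb and 44.4% with loci as units, and for single genes 40.9% within 100 kb and 4.55% inside genes alone. With loci the unit itself differs, since 1 peak makes a whole array count, and there is no background share for loci. Clusters held 0.770 peaks per Mb with the wide peaks alone (autosomes 1.74). Counting peaks by any overlap left all 3 shares as they were. Without the Cyp2c cluster, an alternative chosen after seeing the data as were the sets by position and the addition of clustered family 4 genes, clustered genes had a peak in 16.7% of cases and all P450 genes in 16.9%. No paired analysis was possible because the peak list was made from both lines together, and for the same reason no line could be left out. Peaks missed for lack of reads cannot be told from sites without p63.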

Other observations

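Relative to the annotated extent of the gene, of 22 pairs of a P450 gene and a peak, 8 were inside the gene, 7 downstream of it and 4 upstream, and 3 could not be placed because the promoter table has no strand for the gene. The 4 upstream pairs were 2 at Cyp4f16 and 1 each at Cyp2j6 and Cyp2s1. Of the inside pairs, that of Cyp2j9 lay before the RefSeq start of its promoter window. Several peaks were counted for 2 neighbouring genes, the same count was not made for other genes, and no test was run.

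Of the P450 genes that act on fatty acids in skin, Cyp4f39 had its counted peak inside the next gene, and Cyp2b19, counted above with the clustered xenobiotic genes, had its nearest peak at 453 kb. Cers3, Elovl4, Abhd5 and Aloxe3, which act in the same barrier lipid pathway, each had at least 1 peak within 25 kb, while Alox12b and Pnpla1 had 0. Like Cyp4f39, Elovl4 and Aloxe3 were not the nearest gene of any peak, while Cers3 and Abhd5 were. The data give no expression, so these are positions only.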
